A study of Mus musculus with 20 samples.

Results

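The 37 genes described here encode enzymes and complex subunits that write, read or erase DNA methylation and histone marks or that move nucleosomes. They were taken by name, by a rule that uses no measured value, from a list drawn up when earlier results of these data were known, and all 37 were found among the 22878 gene symbols of the deposited RNA tables. They comprise 4 genes of DNA methylation, 3 of its oxidative removal, 4 of Polycomb repressive complex 2 (PRC2), 5 of PRC1 and the H2A deubiquitinase complex PR-DUB, 3 other histone methyltransferases, 4 histone demethylases, 7 histone deacetylases, 2 histone acetyltransferases and 5 chromatin remodellers. Where a symbol had several transcript rows, as 13 members did, the row with the most reads was used.

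DNA methyltransferases add a methyl group to cytosine, mostly at CpG pairs: Dnmt3a and Dnmt3b set it on unmethylated DNA, and Dnmt1, brought to newly copied DNA by Uhrf1, keeps it through cell division. TET enzymes oxidise the methyl group, a step towards its loss. PRC2 methylates histone H3 at lysine 27, a mark of silenced genes, through Ezh2 or Ezh1; in CD4 T cells DNA methyltransferases and Ezh2 are known to restrain cytokine genes of other helper lineages, and T-bet (gene Tbx21) is the transcription factor that opens the Ifng locus in Th1 cells.

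Mouse CD4 T cells were sorted by whether they expressed T-bet or once had, and their RNA was sequenced, with 2 libraries in each of 6 groups. The spleen cells were CD4+CD44highCD25- and tdTomato+, from naive mice on a C57BL/6 background that carry the ZTCE reporter (T-bet-ZsGreen-T2A-CreERT2) and a Rosa26-loxP-STOP-loxP-tdTomato allele; they were split into ZsGreen+ cells, which express T-bet at the time of sorting, and ZsGreen- cells, which have a history of it. Both spleen groups thus carry the tdTomato mark, which the drug-inducible Cre leaves in a cell and its progeny. The lymph node cells were specific for the antigen AS15 by tetramer, taken from draining lymph nodes on day 16 after immunization with AS15 in complete Freund's adjuvant, from mice with T-bet-Cre and the same tdTomato allele on C57BL/6; in these mice tdTomato marks any past or present T-bet expression. They were sorted as Tfh Tomato+, Tfh Tomato-, non-Tfh Tomato+ and non-Tfh Tomato- cells, with Tfh (T follicular helper) meaning CXCR5high PD1high and non-Tfh CXCR5low PD1low. Ages, and whether replicate libraries came from separate animals, are not given in the sources used here, so p-values measure only the spread between these libraries.

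Total gene counts ran from 13169783 to 24174592 per library. Genes with any read numbered 15080 to 15326 in spleen libraries and 11154 to 11805 in lymph node libraries. The 8 CD4 T cell markers examined all had reads in all 12 libraries, though Cd4 itself had 199 and 189 RPKM in ZsGreen+ libraries against 362 and 381 RPKM in ZsGreen- libraries (RPKM, reads scaled to transcript length and library size). Tbx21 had 193 and 214 RPKM in ZsGreen+ libraries, against 46.4 and 45.3 RPKM in ZsGreen- libraries. It had 53.0 to 183 RPKM in the 4 Tomato+ libraries and 10.4 to 12.9 RPKM in the 4 Tomato- libraries. S100a8, a neutrophil gene, had 300 and 263 RPKM in replicate 2 of Tfh Tomato- and of non-Tfh Tomato- cells and 68.3 RPKM in replicate 1 of non-Tfh Tomato+ cells, against 9.70 RPKM or less in the other 5 lymph node libraries. Neutrophil RNA was not confined to the lymph node. The 9 neutrophil genes examined summed to 775 to 1192 RPKM in spleen libraries and 0.754 to 450 RPKM in lymph node libraries.

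In spleen, Dnmt3b and Hdac5 rose in ZsGreen+ cells, while Tet3, Ezh2, Asxl1, Ezh1, Uhrf1 and Dnmt3a fell. By class, 3 of 4 genes of DNA methylation were called, 1 of 3 of its removal, 2 of 4 of PRC2, 1 of 5 of PRC1 and PR-DUB and 1 of 7 deacetylases, and none of the 14 in the other classes. Of the 37 members, 8 passed an adjusted p of 0.05 in edgeR's quasi-likelihood test over all genes, 2 higher and 6 lower. That is 21.6% of the members beside a background of 23.8% of all 12918 genes tested (11.4% higher and 12.4% lower), so the share of members called was near that of genes in general. The RPKM of the 2 ZsGreen+ and the 2 ZsGreen- libraries did not overlap for 25 of 36 members with enough signal, beside 64.0% of all genes. The median log2 fold change was -0.07 over the members and 0.004 over all genes. In sorted bulk RNA, fewer cells of a type and less RNA per cell cannot be told apart.

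Dnmt3b, a methyltransferase of unmethylated DNA, had 3.32 and 3.71 RPKM in ZsGreen+ libraries, against 1.23 and 1.50 RPKM in ZsGreen- libraries. Its difference was 1.32 ± 0.16 on the log2 scale (SE, edgeR, adjusted p = 0.000250), which is 2.50-fold and the only one among the members of at least 2-fold. Both ZsGreen+ libraries lay above both ZsGreen- libraries. All 5 transcript rows annotated for the gene gave ratios of mean RPKM between 2.57 and 2.59. Those rows are overlapping transcripts with 1583 to 1609 reads each over all libraries, so their agreement is not separate evidence. Dnmt3a, the other enzyme of this kind, ran the other way. It had 8.85 and 9.59 RPKM in ZsGreen+ libraries and 11.1 and 10.4 RPKM in ZsGreen- libraries, a log2 difference of -0.26 ± 0.08 (edgeR, adjusted p = 0.0369). The groups did not overlap, but the margin was small and the call was lost in 3 of the 4 fits that leave out 1 library, with adjusted p of 0.0956 without ZsGreen- replicate 1, 0.227 without ZsGreen+ replicate 1 and 0.0655 without ZsGreen+ replicate 2. Dnmt3a therefore remained the more abundant of the pair by RPKM, 2.67 and 2.58 times the level of Dnmt3b in ZsGreen+ libraries and 9.07 and 6.90 times in ZsGreen- libraries.

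Of the maintenance genes Dnmt1 and Uhrf1, only Uhrf1 was called, and the difference between them was not tested. Dnmt1, the copying methyltransferase, had 33.1 and 33.8 RPKM in ZsGreen+ libraries and 30.8 and 30.1 RPKM in ZsGreen- libraries. Its log2 difference of 0.10 ± 0.07 did not pass (edgeR, adjusted p = 0.374). Uhrf1, which brings Dnmt1 to half-methylated DNA after replication, had 13.9 and 13.0 RPKM in ZsGreen+ libraries, against 17.7 and 16.1 RPKM in ZsGreen- libraries. It fell by 0.37 ± 0.09 on the log2 scale (SE, edgeR, adjusted p = 0.0112; 0.0642 without ZsGreen+ replicate 2).

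Among the TET dioxygenases, Tet3 had 9.20 and 9.23 RPKM in ZsGreen+ libraries, against 13.7 and 12.7 RPKM in ZsGreen- libraries. The log2 difference was -0.56 ± 0.07 (SE, edgeR, adjusted p = 0.000482), and the groups were well apart. Tet2 had 2.95 and 2.57 RPKM in ZsGreen+ libraries and 3.25 and 3.32 RPKM in ZsGreen- libraries, a log2 difference of -0.29 ± 0.11 that did not pass (edgeR, adjusted p = 0.0831). Tet1 was the least abundant of all 37 members in spleen, at 0.858 to 1.12 RPKM. Tet3 was thus the leading TET transcript in all 4 spleen libraries, above both of its relatives per transcript length.

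In PRC2, the catalytic subunits fell and the scaffold subunits did not pass the test. Ezh2, the more active methyltransferase subunit and one typical of dividing cells, had 15.9 and 14.6 RPKM in ZsGreen+ libraries, against 26.1 and 22.2 RPKM in ZsGreen- libraries. The log2 difference of -0.70 ± 0.10 (SE, edgeR, adjusted p = 0.000612) was the largest decrease among the members and one of only 2 called differences of at least 1.5-fold, Dnmt3b being the other. Ezh1, the alternative subunit found also in resting cells, had 21.1 and 21.5 RPKM in ZsGreen+ libraries, against 27.4 and 26.0 RPKM in ZsGreen- libraries. It fell by 0.36 ± 0.07 on the log2 scale (SE, edgeR, adjusted p = 0.00547), so both catalytic subunits were lower and their ratio shifted as well. The RPKM of Ezh2 was 0.753 and 0.680 times that of Ezh1 in ZsGreen+ libraries, against 0.952 and 0.855 times in ZsGreen- libraries; that ratio was not itself tested. Suz12, a core scaffold subunit, had a log2 difference of 0.14 ± 0.09 (edgeR, adjusted p = 0.284). Eed, which binds the methylated histone tail, had 22.1 and 21.6 RPKM in ZsGreen+ libraries, on both sides of which lay the 25.1 and 14.1 RPKM of the ZsGreen- libraries. Its difference of 0.13 ± 0.20 did not pass (edgeR, adjusted p = 0.699), and it passed at 0.58 (adjusted p = 0.000961) only when ZsGreen- replicate 1 was left out.

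In PRC1 and PR-DUB, only Asxl1 was called. Asxl1, the cofactor of the deubiquitinase in PR-DUB, had 8.34 and 9.14 RPKM in ZsGreen+ libraries, against 12.3 and 12.4 RPKM in ZsGreen- libraries, a log2 difference of -0.54 ± 0.08 (edgeR, adjusted p = 0.000919). The other 4 genes, all of PRC1, had log2 differences between 0.002 and 0.21: the ubiquitin ligases Ring1 (0.21 ± 0.12) and Rnf2 (0.14 ± 0.08), their partner Bmi1 (0.13 ± 0.13) and the reader of methylated H3 lysine 27 Cbx7 (0.002 ± 0.08). None of them passed the test, with adjusted p from 0.259 upwards in edgeR. Cbx7 was the most abundant member in spleen, at 60.7 to 68.1 RPKM.

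**Figure D1:**
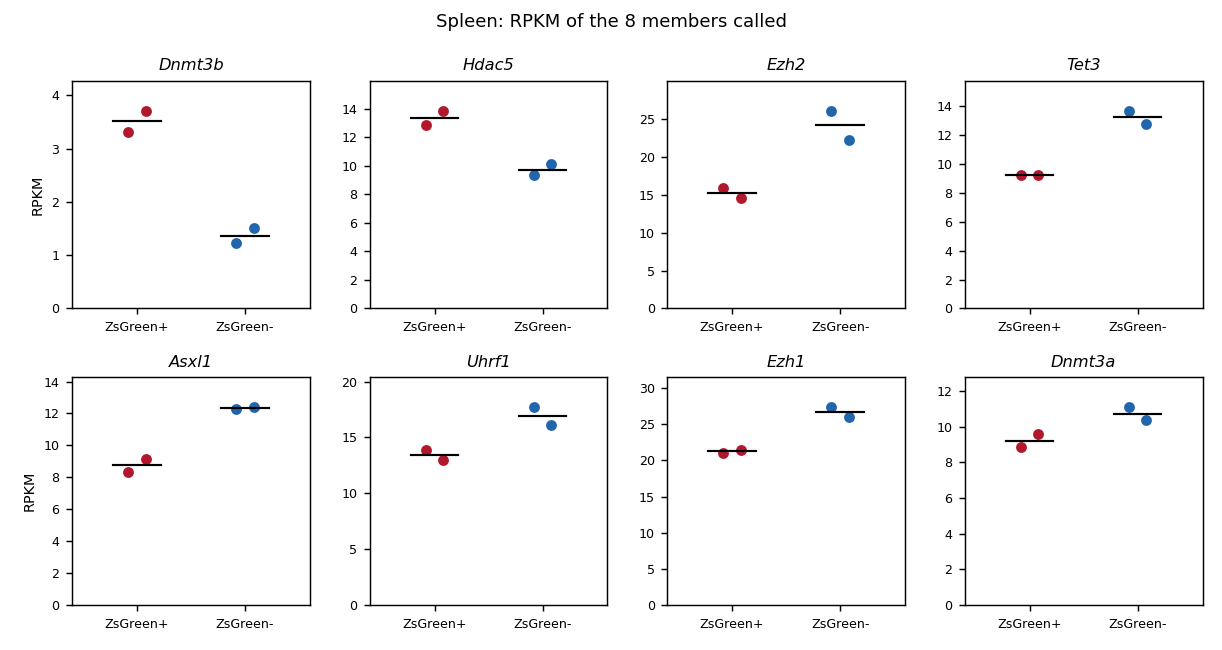
RPKM in each spleen library of the 8 members that passed edgeR's test at an adjusted p of 0.05, with 2 ZsGreen+ libraries left and 2 ZsGreen- libraries right in each panel; points are libraries, horizontal bars are means and each y axis starts at 0. Dnmt3b and Hdac5 are higher in both ZsGreen+ libraries and the other 6 genes are lower, with no overlap in any panel.

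The 100 bases upstream of the annotated starts of Dnmt3b, Ezh2, Tet3 and Asxl1, the 4 members with the smallest adjusted p, are shown to let their CpG content be read directly, together with the stretch upstream of Uhrf1 that holds the one E2F-type sequence found among the genes called (E2F factors control genes of DNA replication). They come from RefSeq on build GRCm38.p6, 5′ to 3′ on the strand of each gene, in lower case with CpG pairs in capitals.
Dnmt3b, chr2:153649349-153649448, plus strand: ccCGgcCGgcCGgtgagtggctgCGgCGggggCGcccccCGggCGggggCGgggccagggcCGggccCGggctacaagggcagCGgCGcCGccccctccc
Ezh2, chr6:47595031-47595130, minus strand: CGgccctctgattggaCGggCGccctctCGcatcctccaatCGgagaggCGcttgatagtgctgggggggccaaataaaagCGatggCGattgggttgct
Tet3, chr6:83441679-83441778, minus strand: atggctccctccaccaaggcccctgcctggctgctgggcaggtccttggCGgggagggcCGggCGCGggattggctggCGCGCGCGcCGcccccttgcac
Asxl1, chr2:153345730-153345829, plus strand: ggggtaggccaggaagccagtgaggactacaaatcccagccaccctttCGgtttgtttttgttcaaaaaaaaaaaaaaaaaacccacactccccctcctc
Uhrf1, chr17:56304088-56304187, plus strand: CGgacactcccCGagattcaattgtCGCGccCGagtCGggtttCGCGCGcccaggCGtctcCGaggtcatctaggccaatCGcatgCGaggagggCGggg
The stretches hold 14 CpG pairs at Dnmt3b, 8 at Ezh2, 9 at Tet3 and 1 at Asxl1, all in the 100 bases next to the start. The Uhrf1 stretch was picked for the motif, lies 225 to 126 bases before its start and holds 14, whereas the 100 bases next to the other annotated Uhrf1 start hold 6.

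Most members start in CpG-rich DNA. RefSeq gave 43 windows of 300 bases, from 250 before the start to 50 after it, for 32 of the 37 members. They held a median of 30 CpG pairs (2 to 57), against 7 over all 32851 windows, and 40 of the 43 lay above that median. All windows were not limited to genes with reads in these libraries, so the contrast need not be particular to the members. Windows of the same gene can also overlap, as at Dnmt3a. GC content had a median of 68.0% in the members' windows and 52.7% in all. In the 250 upstream bases on both strands, the E2F-type sequence TTTCGCGC was found in 2 of the 43 windows, of Dnmt1 and Uhrf1, and in 0.256% of all windows. TTTCGCGC itself holds CpG pairs, so all windows, which are poorer in CpG, are not a like background for the members. The related TTTGGCGC was in 0 of the 43 and in 0.417% of all. GGTGTGA, a T-box-type sequence, was also in 0 of the 43 and in 3.33% of all. At such low shares, 0 matches in 43 windows do not show that the members lack either sequence. All windows, which are poorer in GC, are not a like background here either. A match is a description of these letters and says nothing of binding.

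Histone methyltransferases and demethylases gave no call in spleen. The heterochromatin enzymes Suv39h1 and Setdb1 and the H3 lysine 79 methyltransferase Dot1l had log2 differences of -0.08 ± 0.09, -0.15 ± 0.08 and -0.25 ± 0.10. Kdm6b, which removes methyl groups from H3 lysine 27 and so opposes PRC2, had 9.91 and 9.61 RPKM in ZsGreen+ libraries and 13.4 and 10.3 RPKM in ZsGreen- libraries. The groups did not overlap, and the difference of -0.32 ± 0.11 did not pass (edgeR, adjusted p = 0.0667; 0.000708 without ZsGreen- replicate 2). The H3 lysine 4 demethylases Kdm5a and Kdm5b and Kdm1a had differences of 0.06 ± 0.08, 0.19 ± 0.08 and -0.08 ± 0.11.

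Of the deacetylases, which take acetyl groups off histone tails, only Hdac5 was called. Hdac5, a class IIa enzyme that shuttles between nucleus and cytoplasm, had 12.9 and 13.9 RPKM in ZsGreen+ libraries, against 9.33 and 10.1 RPKM in ZsGreen- libraries. It rose by 0.42 ± 0.09 on the log2 scale (SE, edgeR, adjusted p = 0.00763). Its class IIa relatives had values of 0.12 ± 0.09 (Hdac4) and 0.06 ± 0.09 (Hdac7), and the class I enzymes -0.13 ± 0.08 (Hdac1), -0.07 ± 0.11 (Hdac2) and -0.23 ± 0.09 (Hdac3). The NAD-dependent deacetylase Sirt1 stood at -0.18 ± 0.15. These 6 did not pass, with adjusted p from 0.0877 upwards.

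The acetyltransferases Ep300 and Crebbp differed in sign, at -0.16 ± 0.08 and 0.15 ± 0.08, and neither passed. Among the remodellers, Smarca4 (the BRG1 motor of SWI/SNF) stood at -0.03 ± 0.08, Chd4 (the motor of NuRD) at -0.06 ± 0.08 and Chd7 at 0.11 ± 0.07. Smarcb1, a core SWI/SNF subunit, had 43.6 and 46.1 RPKM in ZsGreen+ libraries and 50.3 and 53.0 RPKM in ZsGreen- libraries. At -0.24 ± 0.08 it lay just outside the threshold (edgeR, adjusted p = 0.0524), the nearest of the 29 members not called. Arid1a, which targets SWI/SNF to DNA, stood at 0.21 ± 0.08 (adjusted p = 0.100).

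**Figure D2:**
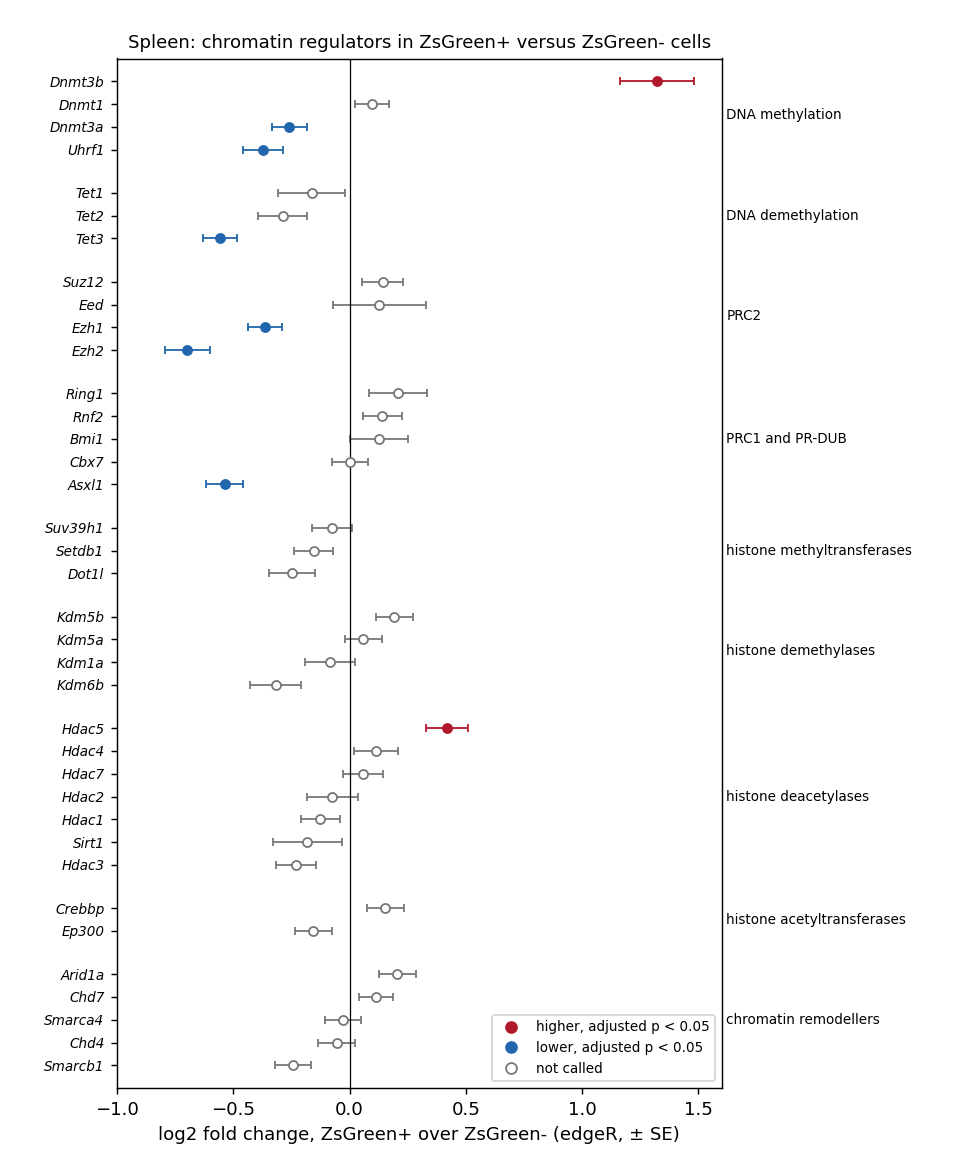
Log2 fold change of ZsGreen+ over ZsGreen- spleen cells for the 37 members, grouped by function; points are edgeR estimates from 2 libraries a group, bars are ± 1 SE and filled points passed an adjusted p of 0.05. The 29 open points lie between -0.32 and 0.21, and Dnmt3b at 1.32 stands far to the right of Hdac5 at 0.42.

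A wider set of chromatin genes was examined beside the members. Of 119 such regulators tested in spleen, 15 were called, 8 higher and 7 lower, a smaller share than the 23.8% of all genes called. Other PRC2 genes were among them: Jarid2, an accessory subunit that helps recruit the complex, had 12.2 and 12.4 RPKM in ZsGreen+ libraries, against 16.8 and 16.1 RPKM in ZsGreen- libraries, a log2 difference of -0.46 ± 0.07 (edgeR, adjusted p = 0.00142). Aebp2, which belongs to the same form of PRC2, stood at -0.53 ± 0.09 (adjusted p = 0.00242), and Phf1, an accessory subunit of another form, at 0.33 ± 0.09 (adjusted p = 0.0214; 0.188 without ZsGreen+ replicate 2). The smallest adjusted p belonged to Hdac10, a class IIb deacetylase known to act on polyamines, which had 11.3 and 10.3 RPKM in ZsGreen+ libraries, against 19.6 and 21.1 RPKM in ZsGreen- libraries (-0.95 ± 0.10, adjusted p = 8.93e-05). The H3 lysine 36 methyltransferase Whsc1 fell by 0.55 ± 0.09 (adjusted p = 0.00151) and the H3 lysine 4 methyltransferase Setd1a rose by 0.45 ± 0.12 (adjusted p = 0.0188; 0.148 without ZsGreen+ replicate 2).

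Other gene lists were examined in the same comparison, in which 23.8% of all genes were called. The share called was smaller than that for neutrophil genes and near it for macrophage and monocyte genes. The part of these lists in the members' differences was not tested. Of 28 cell cycle genes, 18 were called, 3 higher and 15 lower in ZsGreen+ cells, and their summed level was 608 to 633 RPKM in ZsGreen+ libraries, against 680 to 729 RPKM in ZsGreen- libraries. Mki67 had 7.73 and 7.32 RPKM in ZsGreen+ libraries and 11.2 and 10.6 RPKM in ZsGreen- libraries, a log2 difference of -0.57 ± 0.08 (edgeR, adjusted p = 0.000589). All 8 markers of NK and innate-like T cells were higher, with summed levels of 247 and 261 RPKM in ZsGreen+ libraries, against 25.5 and 26.3 RPKM in ZsGreen- libraries. Of the 8 CD4 T cell markers 3 were called, all lower, with sums of 2647 and 2796 RPKM in ZsGreen+ libraries and 3372 and 3259 RPKM in ZsGreen- libraries. Of 9 neutrophil genes 1 was called, with sums of 1138 and 1192 RPKM in ZsGreen+ libraries, against 775 and 1047 RPKM in ZsGreen- libraries. Of 14 macrophage and monocyte genes 4 were called, 3 of them higher, with sums of 584 and 723 RPKM in ZsGreen+ libraries and 570 and 588 RPKM in ZsGreen- libraries. No gene of these lists was at 0 in a spleen library.

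In the lymph node, no member passed the test in any of the 7 contrasts. For Tomato+ over Tomato- cells, with Tfh and non-Tfh cells weighted equally, 0 of 37 members were called beside 0.656% of all 11746 genes tested, with 4 members at an unadjusted p below 0.05 (1289 of all genes). For Tfh over non-Tfh cells, with both Tomato states weighted equally, 0 of 37 were called beside 1.07% of all genes, with 2 at an unadjusted p below 0.05 (1410 of all genes). Within single groups the background was 0.111% for Tomato in Tfh cells, 0.332% for Tomato in non-Tfh cells, 0.0766% for Tfh over non-Tfh in Tomato+ cells and 0.179% in Tomato- cells. An unadjusted p below 0.05 in edgeR was reached by 1 member and 685 of all genes for Tomato in Tfh cells. For Tomato in non-Tfh cells it was reached by 9 of 37 members and 1050 of 11746 genes. That is a larger share of members than of genes, and the difference in shares was not tested. For Tfh over non-Tfh it was reached by 1 member and 962 genes in Tomato+ cells, and 0 members and 1060 genes in Tomato- cells. In these other single-group contrasts the share of members was smaller than that of genes. The test of whether the Tomato difference itself differed between Tfh and non-Tfh cells called 0.0% of genes (746 genes and 1 member, Ezh1, at an unadjusted p below 0.05). DESeq2 called 2 members, Chd7 and Kdm5b, for the mean Tomato difference, beside 5.19% of the 13435 genes it tested, and 1, Chd7, within non-Tfh cells, beside 4.82%. These DESeq2 shares of 37 members are near or below those of all genes, and DESeq2 called none in the other 5 contrasts.

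The lymph node fits were far less precise than the spleen fit. The median SE of a member's log2 fold change was 0.55 for Tomato within Tfh cells and 0.39 for the mean Tomato difference, against 0.085 in spleen. Across 144 pairs of lymph node replicates with reads in both, the larger RPKM was a median of 1.41 times the smaller, and in 39 of all 148 pairs it was at least 2 times or one library was at 0. In spleen the median was 1.07 times, with 1.78 (Eed in ZsGreen- cells) the highest of 74 pairs. Kdm1a, a demethylase of H3 lysine 4, shows the extreme kind: it had 12.6 and 0.122 RPKM in the 2 non-Tfh Tomato- libraries. Dnmt3b, the member most changed in spleen, could hardly be measured in the lymph node. It had 0 and 49 reads in Tfh Tomato+ libraries, 0 and 1 reads in Tfh Tomato- libraries, 26 and 1 reads in non-Tfh Tomato+ libraries and 226 and 1 reads in non-Tfh Tomato- libraries, against at least 158 reads in each spleen library. Tet1 was as uneven, with 0 to 168 reads.

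A few members had RPKM ranges that separated the 4 Tomato+ from the 4 Tomato- libraries. Of the 35 members with at least 1 RPKM in 2 libraries, 6 (17.1%) had RPKM ranges that did not overlap, beside 5.51% of all genes so filtered (3.23% higher and 2.28% lower). With TMM-scaled counts in place of RPKM, it was 5 members (14.3%) beside 5.42% of all genes. The difference in shares was not tested. Ezh2, Kdm6b, Smarca4 and Chd7 lay higher in Tomato+ libraries, and Suz12 and Kdm5b lower. Replicate 2 of both Tomato- groups, where S100a8 was high, was also left out. In that comparison 12 of 35 members (34.3%) did not overlap, beside 15.1% of all genes. It was not planned beforehand, fewer libraries have to separate in it, and its difference in shares was not tested either. Non-Tfh Tomato+ replicate 1, which had the next highest S100a8 level, was kept.

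Chd7, a remodeller of the CHD family that binds methylated H3 lysine 4, was the member nearest the threshold. It had 21.2 and 20.6 RPKM in Tfh Tomato+ libraries and 30.2 and 22.4 RPKM in non-Tfh Tomato+ libraries, against 13.7 and 11.9 RPKM in Tfh Tomato- libraries and 12.6 and 15.3 RPKM in non-Tfh Tomato- libraries. The mean difference was 0.81 ± 0.17 on the log2 scale (edgeR, adjusted p = 0.111), and DESeq2 gave 0.80 with an adjusted p of 0.00131. That all Tomato+ libraries lay above all Tomato- libraries is the rule by which the gene was picked, so it is not further support. The log2 differences were 0.69 in Tfh cells and 0.94 in non-Tfh cells, and neither passed edgeR's test. In spleen the same gene had 10.1 and 10.6 RPKM in ZsGreen+ libraries and 9.50 and 9.12 RPKM in ZsGreen- libraries, with no call.

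Kdm5b, which removes methyl groups from H3 lysine 4, had its lower values in Tomato+ libraries. It had 11.0 and 4.39 RPKM in Tfh Tomato+ libraries and 8.83 and 6.89 RPKM in non-Tfh Tomato+ libraries, against 12.3 and 20.9 RPKM in Tfh Tomato- libraries and 16.6 and 22.2 RPKM in non-Tfh Tomato- libraries. The mean difference was -1.20 ± 0.34 (edgeR, adjusted p = 0.273), DESeq2 gave an adjusted p of 0.0235, and the difference was -0.86 without replicate 2 of both Tomato- groups. The highest Tomato+ library and the lowest Tomato- library, both of Tfh replicate 1, were close to each other.

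Ezh2, which was lower in ZsGreen+ than in ZsGreen- spleen cells, had its higher values in Tomato+ lymph node libraries. It had 14.1 and 10.6 RPKM in Tfh Tomato+ libraries and 7.31 and 10.4 RPKM in non-Tfh Tomato+ libraries, against 2.85 and 5.39 RPKM in Tfh Tomato- libraries and 6.22 and 5.20 RPKM in non-Tfh Tomato- libraries. The mean difference of 1.12 ± 0.51 did not pass (edgeR, adjusted p = 0.483). The spleen and lymph node contrasts ask different things, since ZsGreen- spleen cells also have a T-bet history, and the difference between them was not tested. Suz12, the PRC2 subunit that Ezh2 needs for activity, had 2.93 and 2.56 RPKM in Tfh Tomato+ libraries and 2.97 and 2.51 RPKM in non-Tfh Tomato+ libraries, against 5.71 and 7.28 RPKM in Tfh Tomato- libraries and 4.60 and 4.18 RPKM in non-Tfh Tomato- libraries. Its mean difference was -0.96 ± 0.52 (edgeR, adjusted p = 0.573), so the estimates for these PRC2 subunits had opposite signs.

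The other two were narrower. Smarca4 had 19.1 and 21.0 RPKM in Tfh Tomato+ libraries and 29.0 and 21.4 RPKM in non-Tfh Tomato+ libraries, against 17.1 and 18.4 RPKM in Tfh Tomato- libraries and 13.1 and 16.9 RPKM in non-Tfh Tomato- libraries (0.47 ± 0.19 on the log2 scale, edgeR, adjusted p = 0.417). Kdm6b had 61.6 to 77.6 RPKM in the 4 Tomato+ libraries and 53.8 to 61.4 RPKM in the 4 Tomato- libraries, with a mean difference of 0.23 ± 0.12 (edgeR, adjusted p = 0.554). Kdm6b was among the steadiest members in these libraries, and its Tfh groups all but touched.

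**Figure D3:**
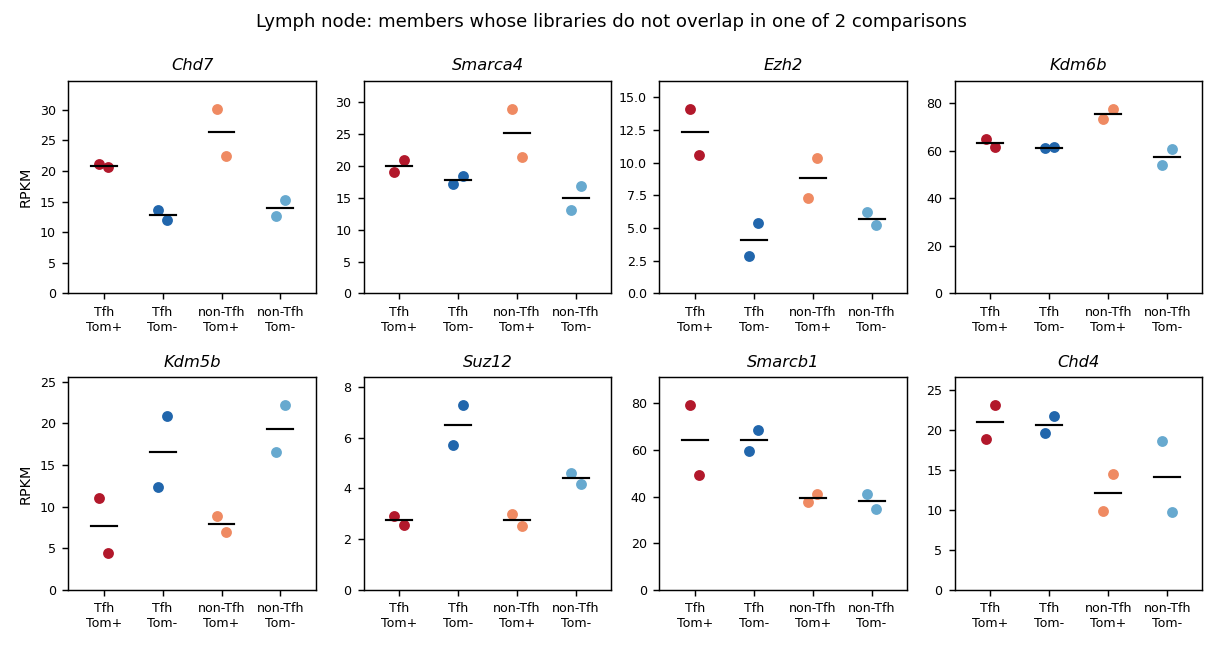
RPKM in each lymph node library of the 8 members whose libraries did not overlap between Tomato+ and Tomato- cells (first 6 panels) or between Tfh and non-Tfh cells (Smarcb1 and Chd4), with 2 libraries a group and Tomato+ left of Tomato- within each population; points are libraries, horizontal bars are means and each y axis starts at 0. Chd7, the panel with the smallest adjusted p, has 20.6 RPKM or more in Tomato+ libraries and 15.3 RPKM or less in Tomato- libraries.

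Between Tfh and non-Tfh cells, 2 of 35 members (5.71%) did not overlap, beside 6.73% of all genes. Both were higher in Tfh cells, as were 4.07% of all genes. Smarcb1 had 79.2 and 49.3 RPKM in Tfh Tomato+ libraries and 59.6 and 68.5 RPKM in Tfh Tomato- libraries, against 37.6 and 41.1 RPKM in non-Tfh Tomato+ libraries and 41.1 and 34.8 RPKM in non-Tfh Tomato- libraries. The mean difference was 0.66 ± 0.23 (edgeR, adjusted p = 0.311). Chd4 had 18.9 to 23.1 RPKM in the 4 Tfh libraries and 9.69 to 18.7 RPKM in the 4 non-Tfh libraries, with a difference of 0.59 ± 0.26 (edgeR, adjusted p = 0.416). Ezh1 had the one nominal difference in the test of whether the Tomato difference differs between the 2 populations: it had 47.2 and 30.7 RPKM in Tfh Tomato+ libraries and 18.8 and 25.6 RPKM in Tfh Tomato- libraries, and 18.1 and 9.39 RPKM in non-Tfh Tomato+ libraries and 18.9 and 43.9 RPKM in non-Tfh Tomato- libraries (1.99 ± 0.69 for the Tfh minus the non-Tfh difference, edgeR, adjusted p = 0.774). The 2 non-Tfh Tomato- libraries were far apart, one of them as high as the Tfh Tomato+ libraries. Of the wider set of regulators, 0 of 118 tested were called in each lymph node contrast by edgeR, with 2 to 12 at an unadjusted p below 0.05 beside 685 to 1410 of the 11746 genes tested.

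Some markers of other cells also differed between the Tomato groups, a comparison in which 0.656% of all genes were called. Their part in these values was not tested. The 14 macrophage and monocyte genes summed to 236 to 616 RPKM in the 4 Tomato+ libraries, against 1146 to 1669 RPKM in the 4 Tomato- libraries; all 14 had a negative mean difference, 3 passed the test, and 0 to 2 were at 0 in a library. The 28 cell cycle genes summed to 401 to 614 RPKM in Tomato+ libraries and 233 to 353 RPKM in Tomato- libraries, with 1 called higher. The 8 NK and innate-like T cell genes summed to 68.3 to 95.2 RPKM in Tomato+ libraries and 17.1 to 61.3 RPKM in Tomato- libraries, with 1 called higher and 0 to 3 at 0 in a library. The 9 neutrophil genes summed to 0.754 to 87.7 RPKM in Tomato+ libraries and 4.05 to 450 RPKM in Tomato- libraries, with 3 to 6 of them at 0 in each.

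Levels between the lymph node and spleen libraries differed for some members. Tissue, reporter strain, immunization, cell selection and protocol differ together and cannot be told apart, so no test was made. Fewer genes also had any read in each lymph node library (11154 to 11805) than in any spleen library (15080 to 15326). Of 36 members with enough signal, 2 lay higher in all lymph node libraries, beside 3.07% of all genes, and 6 lay lower, beside 8.96% of all genes. Kdm6b had 53.8 to 77.6 RPKM in the 8 lymph node libraries, against 9.61 to 13.4 RPKM in the 4 spleen libraries, the widest gap upwards. Chd7 had 11.9 to 30.2 RPKM in lymph node libraries and 9.12 to 10.6 RPKM in spleen libraries. Dnmt1 had 8.33 to 18.6 RPKM in lymph node libraries, against 30.1 to 33.8 RPKM in spleen libraries, and its partner Uhrf1 had 1.89 to 12.9 RPKM in lymph node libraries and 13.0 to 17.7 RPKM in spleen libraries. Ezh2, Hdac7, Arid1a and Cbx7 were also lower in all lymph node libraries than in any spleen library.

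**Figure D4:**
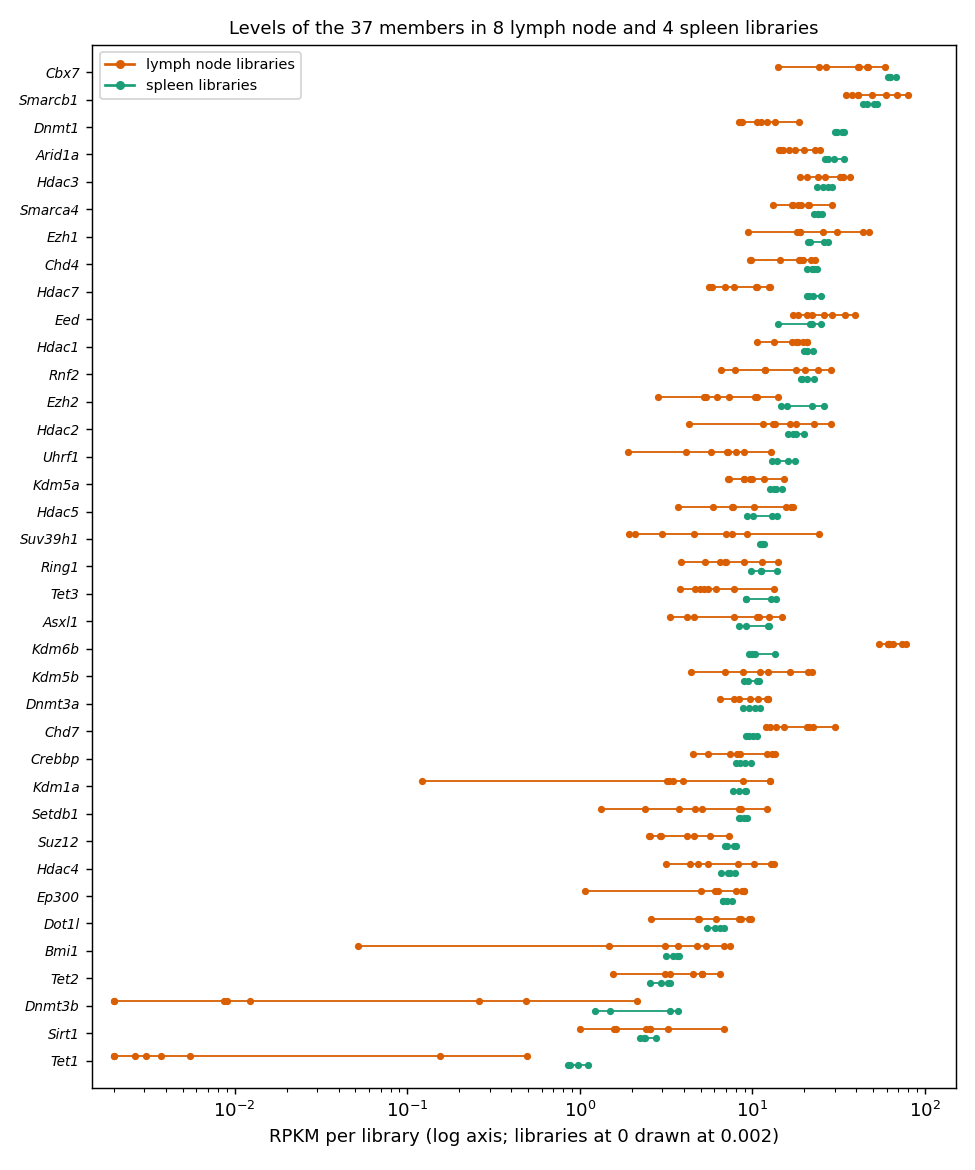
RPKM of each of the 37 members in the 8 lymph node libraries (upper line of each pair) and the 4 spleen libraries (lower line), on a log axis, ordered by the spleen median; points are libraries, lines join the lowest and highest, and libraries at 0 are drawn at 0.002. Kdm6b stands to the right of its spleen values, Dnmt1 to the left, and the lymph node lines of Dnmt3b, Tet1, Bmi1 and Kdm1a are the longest.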

How the data were processed

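Polyadenylated RNA of 12 libraries was analysed, as described in the labels' protocols. The deposited tables give, per RefSeq transcript row (29257 rows), the authors' read counts and their RPKM; in the spleen tables the 2 header names are exchanged, and the column proportional to RPKM times length was used as counts. Tools named in the submitters' processing notes are CASAVA 2.18, Bowtie2, SICER 1.1 and edgeR, with build mm9; the sources used here do not say which step used which, nor if counting was strand-specific. DNase files were not analysed here, since positions of the members on mm9 were not at hand.

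For each symbol the row with the most reads was kept. Counts were tested with edgeR 4.0.16 (TMM, filterByExpr, quasi-likelihood F test, Benjamini-Hochberg over all genes tested, threshold 0.05) in R 4.3.3, the 4 spleen libraries alone and the 8 lymph node libraries in one fit. SE is the absolute log2 fold change over the square root of F. Alternatives used median-of-ratios factors, no filter on low counts, DESeq2 1.42.0, limma 3.58.1 on log2(RPKM + 1), a replicate block and each library left out. All members are named; of the wider list, up to 6 called genes per comparison with the smallest adjusted p and at least 5 RPKM; of the marker lists, Mki67, Tbx21 and S100a8, and Cd4 as a check of the labelled cell type. Members and lists were chosen with earlier results of these data known, although no value enters the rule for the members. RPKM ranges were compared over genes reaching 1 RPKM in 2 or more libraries.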

Additional observations from a re-analysis of the deposited data

How the results depend on the processing

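No called result reversed. Among spleen members not called, the log2 difference changed sign in 9 with 1 library left out, where it ran from -0.319 to 0.00603 for Tet1, -0.220 to 0.580 for Eed (called at 0.580, without ZsGreen- replicate 1), -0.199 to 0.0264 for Kdm1a, -0.0129 to 0.129 for Kdm5a, -0.207 to 0.0714 for Hdac2, -0.040 to 0.151 for Hdac7, -0.0913 to 0.0312 for Smarca4, -0.137 to 0.0236 for Chd4 and -0.0677 to 0.0702 for Cbx7. Smarca4 was also positive, at 0.00759, with limma. Of the lymph node members at an unadjusted p of 0.05 or more and not named for separated libraries, 15 to 18 per contrast changed sign in some setting. In spleen the number of members called was 8 with median-of-ratios factors, 10 with no filter on low counts, 8 with DESeq2 and 7 with limma, and 6 to 9 with 1 library left out. Dnmt3b, Tet3, Ezh2, Asxl1, Ezh1 and Hdac5 passed in all 9 alternatives, with Dnmt3b between 0.93 and 1.49 on the log2 scale; Dnmt3a also failed with limma (adjusted p = 0.159). Kdm6b passed with no filter on low counts (adjusted p = 0.00715), Smarcb1 with no filter (0.0422) and without ZsGreen- replicate 1 (0.0273), and Tet2 without ZsGreen+ replicate 1 (0.0475). Setd1a failed with limma (0.0507). The wider list had 15 calls in spleen, against 23 with no filter, 9 with limma and 7 without ZsGreen+ replicate 2. In the lymph node, DESeq2 called 1 member for Tomato in non-Tfh cells (Chd7, 0.90, adjusted p = 0.0210) and 2 for the mean Tomato difference (Chd7 and Kdm5b), where edgeR called 0; over all genes DESeq2 called 697 of 13435 tested for the mean Tomato difference. All other alternatives, including 1 library left out, called 0 members. With TMM-scaled counts in place of RPKM, 5 members did not overlap for Tomato and 1 for Tfh. The causes were not tested.

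Whether libraries with the same replicate number belong together is not given. Replicate differences correlated across genes at 0.056 between the spleen groups and at -0.011 to 0.034 between lymph node groups. Such low correlations show no strong shared shift and cannot decide whether the libraries were paired. With a replicate block, 9 members were called in spleen, with Kdm6b added (adjusted p = 0.0189), and 0 in each lymph node contrast. With 2 libraries per group the spread between replicates is poorly known.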
